A study of Mus musculus with 43 samples.

Results

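Polypoid tumor cells (0P) and non-neoplastic colon epithelium (0ND) of the same 6 mice were compared after 16 weeks on a diet without folic acid (FA). The 12 libraries, of 43 in the series, are those of the second cohort on 0 mg FA, and each polyp was matched to epithelium by the mouse number in the library title. The series asked how the FA content of the diet bears on colitis-associated neoplasia and on DNA methylation in the mouse colon. All mice were Swiss Webster, received azoxymethane (AOM), a colon carcinogen, at 7 weeks of age, and drank dextran sulfate sodium (DSS), which injures the colon lining, in 4 cycles from 9 weeks. They were fed 2 mg FA per kg chow at first and were assigned to 0, 2 or 8 mg at 11 weeks, so the 0 mg mice were depleted only as adults. All were killed at 27 weeks, and both tissues therefore carry the same carcinogen, colitis and diet. The study describes the mice as female. The cells were cut by laser from formalin-fixed, paraffin-embedded sections, and each library is a mixture of many cells. The study's text also describes non-dysplastic samples that held lamina propria, without saying which libraries those were. The files hold no expression values, so the cell types could not be checked against markers, and a shift in the mixture of cells cannot be told apart from a shift in methylation within cells.

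DNA methylation places a methyl group on the cytosine of CpG dinucleotides. In normal tissue most CpGs outside CpG islands are methylated and most CpGs inside islands, which often lie at promoters, are not, and tumors commonly lose methylation at the former and gain it at some of the latter. Folate supplies the one-carbon units from which the methyl donor S-adenosylmethionine is made. Digital Restriction Enzyme Analysis of Methylation (DREAM) reads this mark at CCCGGG sites: SmaI cuts only unmethylated copies, XmaI then cuts the rest, and the read end tells both states apart.

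Of 173449 listed CpG sites, 11109 reached 20 reads in each of the 12 libraries and were compared. The values are methylation percentages that the authors adjusted with spiked standards, and raw percentages were used as a check. Sites were sorted into classes by their mean in 7 epithelium libraries of other mice on 2 mg FA (2ND, first cohort), which took no part in the comparison. Unmethylated sites were under 10% there (8324 sites), methylated sites were at 70% or more (1274 sites), intermediate sites lay between (1505 sites), and 6 sites had too few reads for a class. Reads on sites numbered 2887279 to 7032575 in 0P and 2863002 to 5873580 in 0ND, and the libraries had medians of 97 to 335 reads at the compared sites. At 4104 of the compared sites every library had 0 methylated reads.

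The spiked standards did not read alike in polyp and epithelium libraries. Of 18 standard sites, 7 had ranges that did not overlap between 0P and 0ND in the raw percentages, 4 of them lower in 0P and 3 higher. Standard T353_1 read 36.6% at the lowest, 37.5% at the median and 38.6% at the highest in 0P, against 46.3%, 48.8% and 51.0% in 0ND. The adjustment did not bring these together, with 36.8% to 41.2% in 0P and 49.3% to 54.2% in 0ND. Standard Sla341_2 went the other way, with 37.8% to 40.8% in 0P and 21.4% to 25.8% in 0ND, and the nearly fully methylated T324_1 read 98.6% to 98.9% in 0P and 99.4% to 99.7% in 0ND. The least methylated standard, La168_1, overlapped between 0P (2.64% to 4.01%) and 0ND (2.23% to 3.27%). One epithelium library broke the link with tissue: the 8 mg epithelium of mouse 1856, whose title is written as the polyp titles are, read 35.1% at T353_1 and 34.4% at Sla341_2, while the other 5 epithelium libraries on 8 mg read 42.1% to 51.7% and 8.25% to 25.5%. Standards took 32.6% to 77.4% of the reads in 0P and 6.98% to 52.7% in 0ND. In the 0 mg mice the tissue and whatever set the standards apart therefore cannot be told apart, and mouse 1856 is used further on as the 1 animal whose epithelium and polyps had like standards. That epithelium library was like the polyps in coverage too, with 48630 sites at 20 reads or more. The 8 mg polyps had 47798 to 54855 such sites and the other 8 mg epithelium 15893 to 21585. Whether its cells or label were those of a polyp was not tested.

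**Figure D1:**
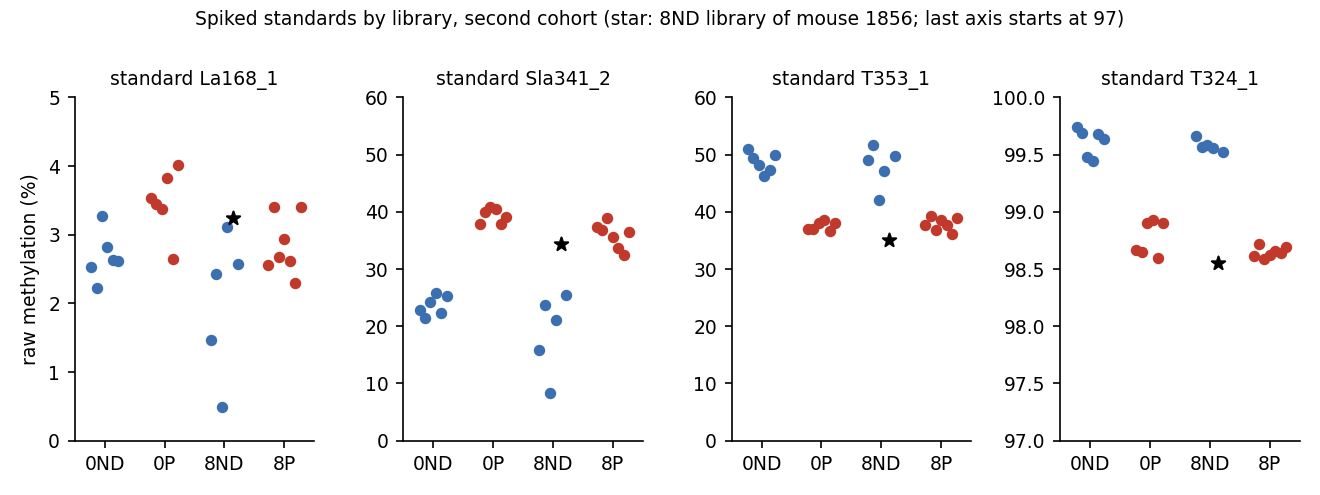
Raw methylation (%) of 4 of the 18 spiked standard sites in each library of the second cohort, by group (blue, epithelium; red, polyps; black star, 8ND library of mouse 1856). The first 3 vertical axes start at 0 and the last at 97. In T353_1 the polyps of the 0 mg mice lie at 36.6% to 38.6% and their epithelium at 46.3% to 51.0%, and the star, at 35.1%, lies with the polyps.

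Methylated and intermediate sites lost methylation in polyps, and unmethylated sites gained a little. Mean methylation over the methylated sites was 88.4% ± 0.836 (SD, n = 6) in 0ND and 80.5% ± 3.56 in 0P, a change of -7.93 percentage points. Over the intermediate sites it was 37.9% ± 2.28 in 0ND and 31.0% ± 2.87 in 0P, a change of -6.87 points. Over the unmethylated sites it was 0.468% ± 0.0823 in 0ND and 0.671% ± 0.0867 in 0P, a change of 0.204 points. Each of these directions held in 6 of 6 mice, and so did the fall of the mean over all compared sites from 15.6% ± 0.421 to 13.9% ± 0.820, a change of -1.68 points. An exact two-sided permutation of signs over the 6 mice gave p = 0.03125 for each of the 4 means, with the same value after Benjamini-Hochberg adjustment across them. This is the lower limit for 6 mice.

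The size of the loss differed among the mice. At methylated sites the change was -12.8 points in mouse 1807, -9.70 in 1809, -9.24 in 1805, -7.59 in 1820, -5.39 in 1808 and -2.82 in 1839. The spread lay mostly among the polyps, which ran from 75.1% in mouse 1807 to 85.3% in mouse 1839. At intermediate sites the change ran from -10.5 points in mouse 1805 to -4.51 in mouse 1839. The gain at unmethylated sites ran from 0.140 points in mouse 1820 to 0.324 in mouse 1839, the mouse with the smallest losses. In mouse 1807, which had the largest loss at methylated sites, it was 0.298, so gains did not simply run against losses. In raw percentages the changes were -7.39 points at methylated, -5.46 at intermediate and 0.226 at unmethylated sites, each in the same direction in 6 of 6 mice. The raw standards moved in both directions. The mean of T324_1 differed by -0.837 points between 0P and 0ND and that of La168_1 by 0.788, the latter larger than the gain at unmethylated sites. Sla374_1, which read above 70% in each of these libraries, differed by 8.89 points and Sla374_2 by 16.42, both opposite to the loss at methylated sites. Of the 7 standards without overlap, 4 were lower in 0P and 3 higher. Their part in these changes was not tested.

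**Figure D2:**
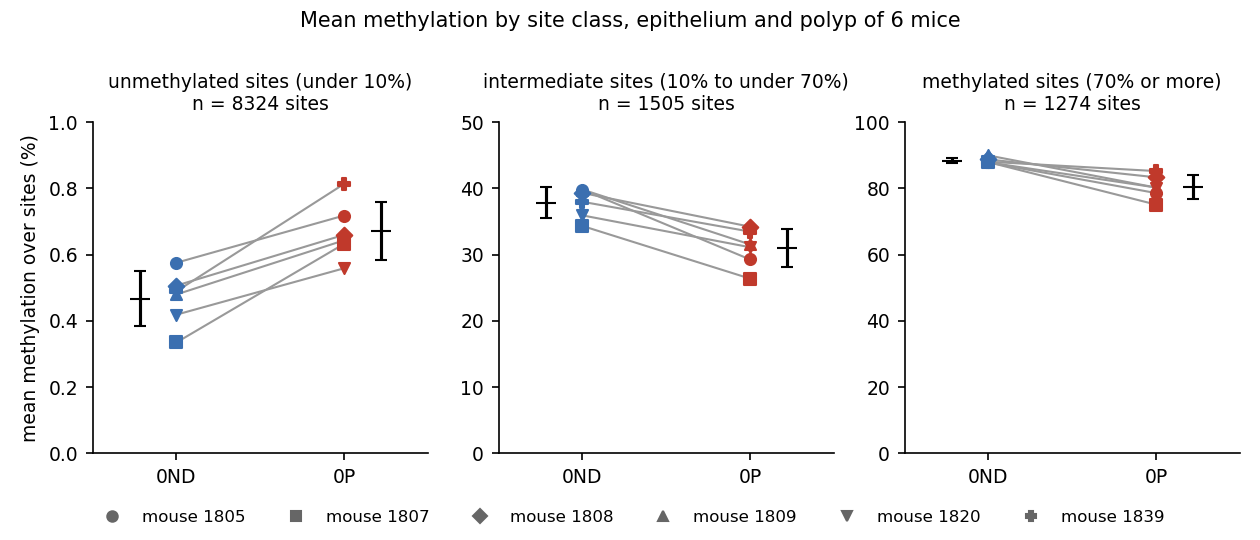
Mean adjusted methylation (%) over the sites of each class in the epithelium (0ND, blue) and the polyp (0P, red) of each of 6 mice, with lines joining the libraries of 1 mouse and black bars giving the group mean ± SD. Every line rises at unmethylated sites and falls at intermediate and methylated sites, by 0.204, -6.87 and -7.93 points on average. The vertical scales differ.

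Site by site, calls were made with the thresholds of the study, a mean difference over 5 percentage points and, in a paired limma test, a p under 0.05 before adjustment. This held for 616 sites (5.55% of the compared sites), of which 541 were lower (4.87%) and 75 higher (0.675%) in polyps. After Benjamini-Hochberg adjustment over all compared sites limma called 0, and 637 sites (5.73%) had an unadjusted p under 0.05, so single sites are given as descriptions. Other tools passed the adjusted threshold at more sites, with 38 from limma without pairing, 16 from an unpaired equal-variance test and 709 from a quasi-binomial model of the reads. The last was tested at 7000 sites only, and these counts carry no 5-point threshold. With that threshold and an unadjusted p under 0.05 the quasi-binomial model called 639 sites. Of the called sites, 87.8% were lower. Centring each library on its own mean, which sets the overall loss to 0, left 75.6% of 619 calls lower without the variance trend and 60.9% of 877 calls with it. Groups did not overlap at 130 sites (1.17%), of which 116 had lower (1.04%) and 14 higher (0.126%) values in every polyp.

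Calls in both directions were most frequent in the intermediate class. Of the lower calls, 317 were at intermediate, 211 at methylated and 13 at unmethylated sites, that is 21.1%, 16.6% and 0.156% of the sites of each class. Of the higher calls, 44 were at intermediate, 18 at methylated, 12 at unmethylated sites and 1 at an unclassed site, that is 2.92%, 1.41% and 0.144% of the sites of the 3 classes. At unmethylated sites losses and gains were thus called about equally often, whereas losses made up 92.1% of the calls at methylated sites. The share called lower rose from 11.5% of sites at 10% to 20% in 2ND to 32.8% at 50% to 60%, and was 8.51% at 90% to 100%. The median difference had the same shape, with -2.49 points at 10% to 20%, -12.8 at 50% to 60% and -3.38 at 90% to 100%.

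**Figure D3:**
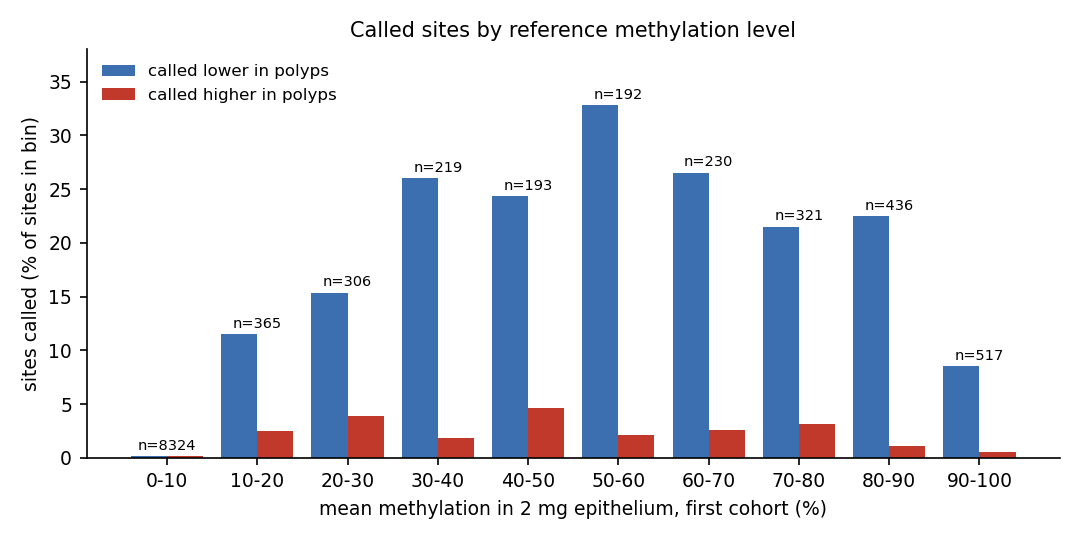
Share of compared sites called lower (blue) or higher (red) in polyps (% of the sites in a bin), by mean methylation of the site in 2ND of the first cohort (%), with the number of sites above each bin. The blue bars are tallest at 50% to 60% (32.8%) and drop to 8.51% at 90% to 100%, and the red bars stay under 5%.

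Sites called lower had a median of 68.7% in epithelium and 39.5% in polyps, with a median difference of -22.2 points. The loss went the same way in 6 of 6 mice at 314 of the 541 sites, in 5 at 212 and in 4 at 15. Polyps varied more between mice than epithelium at 378 of them. Their mean over the sites was 50.7% in the polyp of mouse 1808 and 33.8% in that of mouse 1805, with the other 4 polyps between, whereas the 6 epithelium libraries lay between 61.4% and 66.6%. Sites called higher had a median of 30.4% in epithelium and 55.3% in polyps, a median difference of 15.6 points, and went the same way in 6 of 6 mice at 47 of 75 sites. Since a site had to differ to be called, these sizes are larger than an unselected estimate would be. The raw percentages had the same sign at all 541 and all 75. The adjustment multiplied the odds of a library by only 0.992 to 1.24, so this was largely given at sites called for their adjusted difference.

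Mouse 1805 stood apart in its share of extreme values. Among the intermediate and methylated sites, 51.8% read exactly 0% or 100% in its polyp, against 3.53% to 15.3% in the other polyps and 2.23% to 21.1% in epithelium, and its polyp library had the highest share of reads on standards. Without this mouse 663 sites were called, 572 lower and 91 higher, and the changes of the means were -7.66 points at methylated, -6.13 at intermediate and 0.216 at unmethylated sites.

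The methylated sites that lost most among those lower in all mice were spread over chromosomes 19, 2, 9, 15 and X, and positions are given on mm9. At position 45789634 of chromosome 19, epithelium read 81.4% at the lowest, 86.0% at the median and 97.1% at the highest, and polyps 2.65%, 34.8% and 79.7%. No polyp reached the lowest epithelium library there, and the means were 87.3% ± 5.47 and 37.3% ± 25.7 (difference -50.0 points, SE 9.02, limma adjusted p = 0.219). The neighboring compared site at 45789857 read 92.1% and 88.9% and was not called. At position 172963650 of chromosome 2 the means were 85.3% ± 10.2 and 35.9% ± 27.2, again without overlap. The third, at position 31084981 of chromosome 9, read 92.2% ± 8.64 in epithelium and 46.6% ± 13.6 in polyps, where all polyps lay between 24.0% and 59.3%. At position 99759116 of chromosome 15 the means were 87.9% ± 5.40 and 45.1% ± 23.7, and 1 polyp, of mouse 1805 at 80.0%, lay above the lowest epithelium library at 79.1%. At position 80078928 of chromosome X epithelium read 75.9% to 97.5% and polyps 0% to 62.9%.

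The largest losses at intermediate sites were larger still, although the class mean fell less than that of methylated sites (-6.87 against -7.93 points). At position 139078272 of chromosome 4 epithelium read 35.7%, 74.3% and 100% (lowest, median, highest) and polyps 0%, 11.4% and 44.2%, with a difference of -56.3 points (SE 4.58, limma adjusted p = 0.0719). The groups overlapped although every mouse fell, because the epithelium of mouse 1805 was low. Its neighbor at 139078086 fell with it, from 61.9% ± 9.06 to 12.3% ± 11.1, without overlap. On the same chromosome, position 132827052 read 73.6% ± 14.7 in epithelium and 17.8% ± 14.3 in polyps, and its neighbor at 132826788 read 90.7% and 63.6% and was also called. At position 152746188 of chromosome 2 the means were 79.5% ± 22.8 and 24.8% ± 12.8. The most deeply read of the group was position 98973487 of chromosome 11, with 213 to 1344 reads per library. Epithelium there read 69.2% to 84.1% and polyps 7.85% to 44.1%, and the difference was -54.4 points (SE 7.22, limma adjusted p = 0.147). Its neighbor at 98973678 read 77.5% to 89.8% in epithelium and 9.27% to 64.3% in polyps. The fifth, at position 109955078 of chromosome 9, read 73.2% ± 7.54 and 24.4% ± 17.7.

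The 12 gains called at unmethylated sites ran from 5.48 to 81.2 points with a median of 7.32, and the largest but 1 was 18.5 points. Called or not, 3 unmethylated sites had a mean gain over 20 points, of which 1 was called, and 4 called sites were higher in 6 of 6 mice and are named. At position 117229497 of chromosome 8, epithelium read 3.29% at the lowest, 8.13% at the median and 11.9% at the highest, and polyps 59.0%, 97.2% and 99.3%. The site was nearly unmethylated in epithelium and nearly fully methylated in most polyps, with means of 8.32% ± 3.34 and 89.5% ± 15.8 (difference 81.2 points, SE 6.61, limma adjusted p = 0.0719) and 38 to 222 reads per library. Its neighbor at 117229304 did not gain, with 64.5% ± 7.16 in epithelium and 42.2% ± 22.4 in polyps, and was not called. The 0ND libraries of the first cohort read 0% to 11.5% at the gaining site. The 8 mg epithelium of mouse 1856 read 97.4% there (115 reads), while 4 other 8 mg epithelium libraries with at least 20 reads read 0% to 9.71% and all 7 polyps on 8 mg read 88.6% to 99.5%. Whether the value of that 1 library goes with its standards, its cells or its label was not tested.

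At the other 3 named unmethylated sites the gains were within 10 points. Position 86660424 of chromosome 7 read 2.12% ± 3.08 in epithelium and 11.9% ± 8.27 in polyps, position 28679987 of chromosome 3 read 1.41% ± 1.70 and 8.91% ± 7.00, and position 34838569 of chromosome 2 read 6.80% ± 2.97 and 12.3% ± 3.87. All 3 had overlapping groups and lost their call without mouse 1839. The first also lost it without mouse 1807 and the last without mouse 1809, while the site on chromosome 3 kept it only without mouse 1805. Among sites outside the unmethylated class, the largest gains in all mice were 41.9 points at position 44376307 of chromosome 11 (epithelium 17.3% to 61.3%, polyps 48.4% to 100%), 37.9 points at position 149641088 of chromosome 7 (15.9% to 43.3% and 35.4% to 100%) and 36.5 points at position 103395901 of chromosome 1 (28.8% to 62.4% and 70.9% to 97.7%). Only at the last did the groups not overlap, and the compared neighbors of these 3 were not called.

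**Figure D4:**
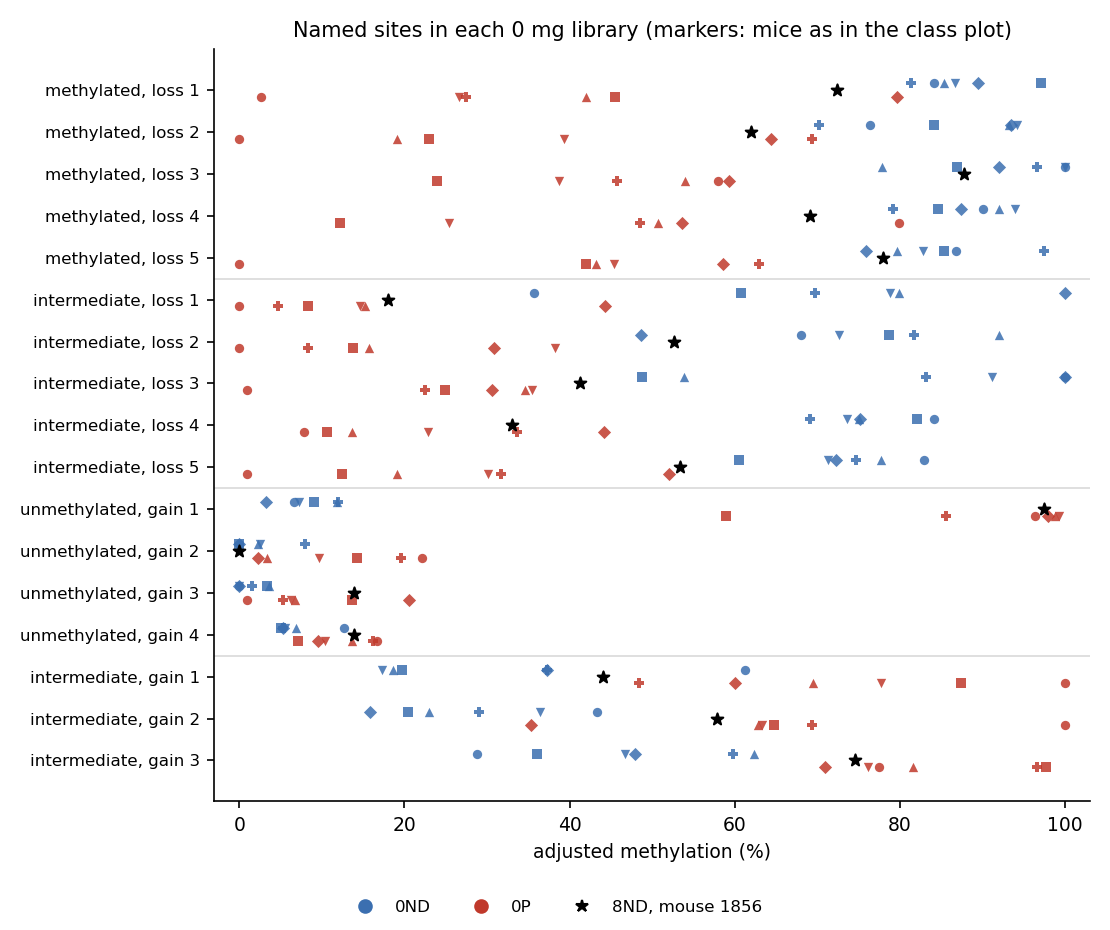
Adjusted methylation (%) at the 17 named sites in the epithelium (0ND, blue) and polyp (0P, red) of each 0 mg mouse, with the 8ND library of mouse 1856 as a black star. Rows follow the order of the text within each class, and markers are 1 mouse each. Within each mouse red lies left of blue in the 10 losses and right of it in the 7 gains, and the star lies at 97.4% in the first unmethylated gain, where 0ND reads 3.29% to 11.9%.

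Neighboring sites often shared losses. Compared sites no more than 1000 bp apart were joined into 5055 chains, and 454 held a lower call and 73 a higher call. Of these, 84 (18.5%) held at least 2 lower and 2 (2.74%) at least 2 higher calls, and 4 held calls in both directions. The difference between these shares was not tested. A DREAM fragment ends in a CCCGGG site on each side, so neighbors share read pairs and are not independent. Uncalled neighbors of lower calls were themselves lower at 262 of 318 sites (82.4%), with a median difference of -5.88 points, beside 70.1% and -3.70 points over all 2189 uncalled intermediate and methylated sites. Uncalled neighbors of higher calls were higher at 33 and lower at 33 of 67 sites. The chains with most lower calls had 3 of 3 compared sites called. On chromosome 4 from 116777019 to 116777824 their mean was 51.4% to 68.4% in epithelium and 24.2% to 44.8% in polyps, and on chromosome 8 it was 23.8% to 46.8% against 0.220% to 22.2% from 34995929 to 34996221 and 9.75% to 20.6% against 2.02% to 9.61% from 35685069 to 35685404. None of these 3 overlapped between the tissues. The 2 chains with a pair of gains were on chromosome 12 from 81071270 to 81071384 (means 10.1% and 30.0%) and on chromosome 2 from 27189061 to 27189188 (69.3% and 80.8%), and both overlapped.

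Sites on the X chromosome, of which females carry an inactive and an active copy, lost little in the intermediate class. Over 136 such sites the mean went from 25.4% to 24.4%, a change of -0.981 points ± 2.28 (SD, n = 6), lower in 4 of 6 mice. Over 1369 autosomal intermediate sites it went from 39.1% to 31.7%, a change of -7.45 points ± 2.56. The difference between the changes was -6.47 points, in the same direction in 6 of 6 mice (exact permutation of signs, p = 0.03125), and -6.31 in raw percentages. This p-value is the lower limit for 6 mice. Benjamini-Hochberg adjustment over 4 such comparisons, all at that limit, could not change it. The comparison was chosen after its values were seen, so the p-value only describes it. Since X-linked sites started lower, the comparison was repeated at sites of 20% to 40% in 2ND, where the change was -0.131 points ± 2.96 over 91 X-linked and -6.71 ± 2.26 over 434 autosomal sites (exact permutation p = 0.03125). Calls followed, with 2 of the 91 (2.20%) and 102 of the 434 (23.5%) called lower. Methylated X-linked sites were not spared, with 7 of 26 called lower (26.9%) and a mean difference of -8.64 points. At autosomal methylated sites 204 of 1248 were called lower (16.3%), with a mean difference of -7.91 points.

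Sites with dense neighbors also lost less. Sites with 3 or more listed sites within 500 bp made up 3052 of the compared sites, and 2895 of those were unmethylated. In the intermediate class, 9 of 100 such sites were called lower (9.00%), against 302 of 1381 (21.9%) with 1 to 2 listed neighbors. The mean change was -1.97 points ± 2.46 (SD, n = 6) at the former and -7.16 ± 2.47 at the latter, a difference of -5.19 points in the same direction in 6 of 6 mice (exact permutation p = 0.03125). The dense sites started lower, at 24.9% against 38.8%. Without the X chromosome the changes were -2.64 and -7.63 points. Both comparisons were chosen after their values were seen.

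The levels in epithelium at the called sites were also found in libraries made separately. In the first cohort 5 0ND libraries, 3 of them from mice 1807, 1809 and 1820 of the present comparison, had at least 20 reads at 520 of the sites called lower. Their means over these sites were 60.9% to 65.2%, the second-cohort 0ND libraries lay at 61.5% to 66.7%, and the polyps at 34.3% to 50.7%. At 67 sites called higher the first-cohort 0ND libraries lay at 36.4% to 41.9%, the second-cohort 0ND at 30.8% to 39.9% and the polyps at 47.6% to 60.1%. The sites were called because second-cohort polyps and epithelium differed there, and only the first-cohort values were not used by the calls. Adjusted standard T353_1 read 49.3% to 58.3% in the first-cohort 0ND, 49.3% to 54.2% in the second-cohort 0ND and 36.8% to 41.2% in 0P. In raw percentages it read 25.7% to 43.1% in the first-cohort 0ND. Tissue and whatever set the adjusted standard apart therefore cannot be told apart with these libraries either. In raw percentages the first-cohort values at the lower calls were 41.4% to 61.1% and overlapped the polyps (33.9% to 50.0%), and the adjustment in that cohort multiplied the odds of methylation by 1.30 to 4.04, against 0.992 to 1.21 in 0P.

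Polyps of mice on 8 mg FA, none of which entered the calls, went the same way at the sites called on 0 mg. The standards parted the tissues in these mice too, except in mouse 1856. Raw T353_1 read 36.1% to 39.2% in their polyps and 42.1% to 51.7% in the other epithelium, and Sla341_2 32.5% to 39.0% and 8.25% to 25.5%. Tissue and whatever set the standards apart thus cannot be told apart in those mice either. At 359 of the sites called lower that had at least 20 reads in all 13 of these libraries, their mean was 55.0% in epithelium and 45.2% in polyps, a change of -9.77 points ± 4.16 (SD, n = 6), lower in 6 of 6 mice (exact permutation of signs, p = 0.03125, and 0.0938 after adjustment over 6 changes tested on 8 mg). Of the 359 sites 307 were lower, beside 652 of all 809 methylated and 537 of all 1039 intermediate sites with as many reads. At 54 of the sites called higher the change was 6.90 points ± 4.91, higher in 5 of 6 mice (exact permutation p = 0.0625, adjusted 0.1125). On 0 mg the same sites changed by -22.8 and 16.5 points, values that chose them. Over the site classes, the change on 8 mg was -5.87 points at methylated sites in 6 of 6 mice and 0.243 at unmethylated sites in 5 of 6. The change at intermediate sites was -1.30 points, lower in 3 of 6 mice (in raw percentages -1.18, lower in 5 of 6), against -6.58 on 0 mg over the same 1039 sites. The difference between the diets was 5.27 points there (exact permutation of diets, p = 0.0152, and 0.0606 after adjustment over 4 such differences), and 3.99 points in raw percentages (exact permutation p = 0.141). At methylated sites it was 2.27 points (exact permutation p = 0.268) and at unmethylated sites 0.0311 (exact permutation p = 0.827).

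Within mouse 1856, whose epithelium and polyps had like standards, the mean change was negative at the sites called lower and at those called higher. Both lesions of this mouse were averaged. At the sites called lower its epithelium read 52.7%, within the 51.5% to 60.9% of the other 8 mg epithelium and above all 7 polyps (39.0% to 50.9%), and its polyps differed by -6.59 points, against -15.3 to -5.45 in the other mice. Its epithelium lay nearer to the polyp mean than to the mean of the other epithelium at 185 of these 359 sites. At the sites called higher its epithelium read 50.1%, above the other 8 mg epithelium (34.5% to 40.1%) and the polyps (44.7% to 49.9%), and lay nearer to the polyp mean at 44 of 54 sites. Its change there was -2.07 points, while the other 5 mice gained 5.97 to 12.3. At unmethylated sites its epithelium read 0.998%, above all other second-cohort libraries on 8 mg (0.248% to 0.814%), and its change was -0.251 points. At methylated sites its epithelium read 83.9%, below the other 8 mg epithelium (84.8% to 88.6%) and above the polyps (76.6% to 83.2%), lay nearer to the polyp mean at 439 of 809 sites, and its change was -2.71 points. At intermediate sites its epithelium read 37.2%, above the other 8 mg epithelium (28.9% to 36.7%) and the polyps (26.4% to 35.4%), lay nearer to the polyp mean at 620 of 1039 sites, and its change was -4.26 points. Of the 10 named losses, 8 were lower in both lesions of mouse 1856 than in its epithelium. At 7 of the 10 that epithelium lay below the range of the 0ND libraries, but at only 3 below the other 8 mg epithelium with at least 20 reads. Of the 7 named gains, the epithelium of mouse 1856 lay above the 0ND range at 5 and above the other 8 mg epithelium at 5. Both lesions were higher than it at 4. This is 1 animal on another diet, with no replicate, so no test was made. Without it the change on 8 mg was -10.4 points at the sites called lower and 8.69 at those called higher (exact permutation p = 0.0625 for each, the smallest that 5 mice allow).

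**Figure D5:**
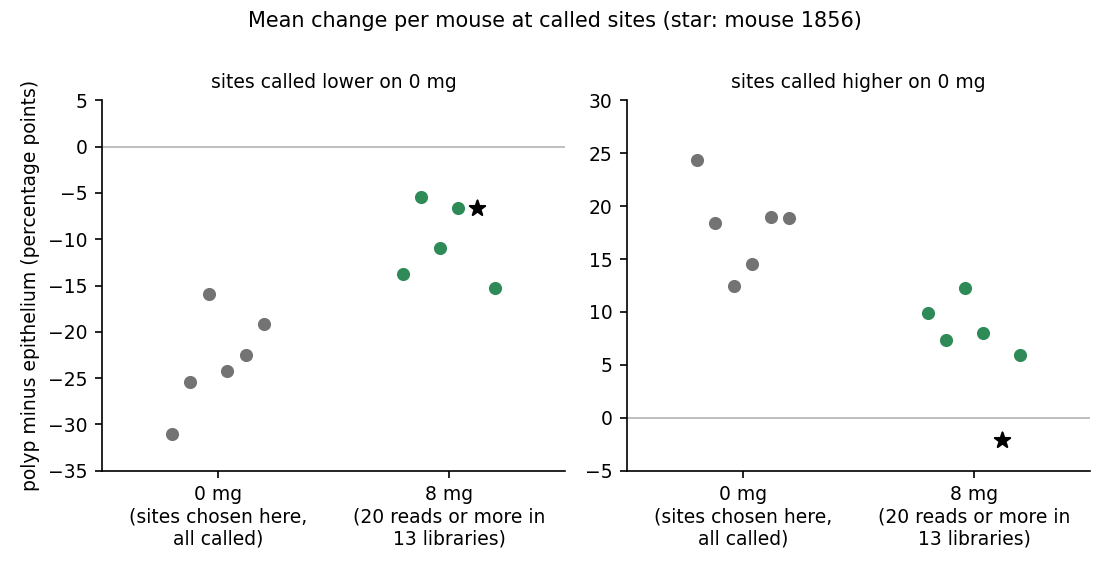
Mean change from epithelium to polyp (percentage points) per mouse at sites called lower (left) and higher (right) on 0 mg. Grey points are the 6 mice on 0 mg, over all 541 and 75 called sites and chosen by these values, and green points and the black star (mouse 1856) are the 6 mice on 8 mg, over 359 and 54 sites. The star lies among the other mice on the left, at -6.59, and is the only point below 0 on the right, at -2.07.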

How the data were processed

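DREAM libraries of the 12 samples were analyzed from the deposited site tables. The authors mapped reads and deposited, per CCCGGG site of mm9, counts of methylated, unmethylated and total reads, the raw methylation percent and a percent adjusted with the spiked standards. The submitters' processing notes name Bowtie2, SAMtools and mm9, while the study's methods name the human genome. It was checked that the adjusted percent of a library is its raw percent with the odds scaled by a constant (0.992 to 1.21 in 0P, 1.02 to 1.24 in 0ND). The 18 standards were left out of all site comparisons.

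Sites reaching 20 reads in each library were tested with limma 3.58.1 in R 4.3.3, with mouse as a block and a variance trend, and p-values were adjusted over all 11109 sites. Means over sites were compared by exact sign flips over mice, and diets by exact permutation of 924 assignments, with Python 3.11.15, numpy 2.4.6, scipy 1.17.1 and pandas 2.3.3. All tests were two-sided. Pairing rests on the labels: the same number is the same animal. Deviations from the group means correlated by 0.0297 on average between libraries of 1 mouse (-0.0313 to 0.0804) and by -0.00535 between mice (-0.0922 to 0.121). The second range contains the first.

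Reference classes came from 2ND libraries, with at least 20 reads in at least 3. Named sites were the 5 largest losses at methylated and at intermediate sites, up to 5 gains at unmethylated sites and 3 at others, each called, in 1 direction in 6 of 6 mice and 1 per chain, and the 3 chains per direction with most calls, leaving out chromosome 18. In the third chain of gains, on chromosome 8, 1 of 2 sites was called. Members, lists and tests were chosen with earlier results of these data known. No 2 tables held identical values. The p-values reflect 1 library per tissue and animal. Positions on mm9 were not assigned to genes and no sequence is shown, since only a later genome build was used here. The R step was tested on simulated data. Alternatives were raw percentages, minimums of 10 and 50 reads, no pairing, no variance trend, an equal-variance test, a quasi-binomial model of the counts, centring, medians, adjusted p-values, classes set from the compared libraries, 3 mice with even read distribution and leaving out each mouse.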

Additional observations from a re-analysis of the deposited data

Results flagged for a closer look

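The factor by which the adjustment multiplied the odds of methylation was 1.21 in the polyp of mouse 1820 and at most 1.04 in the other 5 polyps, a gap that stood out among the values of its group. Gaps were looked for in 24 sets of 6 values, in which chance alone would give about 1.2, and 1 was found. The polyp of this mouse had the lowest share of reads on standards of its group (32.6%). Its change at methylated sites was -7.59 points adjusted and -8.96 raw.

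Between the diets, the polyp minus epithelium change differed by 5.27 points at intermediate sites (8 mg minus 0 mg, exact permutation p = 0.0152, adjusted 0.0606) and by 0.912 points over all compared sites (exact permutation p = 0.0368, adjusted 0.0736), so neither passed after Benjamini-Hochberg adjustment over 4 differences. In raw percentages neither passed unadjusted (exact permutation p = 0.141 and 0.305). Without mouse 1856 the adjusted differences were 5.86 points (exact permutation p = 0.0108) and 1.00 (exact permutation p = 0.0368).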

How the results depend on the processing

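Leaving out each mouse in turn gave changes of -8.95 to -6.95 points at methylated, -7.34 to -6.13 at intermediate, 0.179 to 0.216 at unmethylated and -1.88 to -1.54 at all compared sites, each in the direction found with all mice, but 5 mice cannot give an exact permutation p below 0.0625. In the 3 mice whose epithelium libraries put less than 8% of their reads on their 100 deepest sites (1807, 1809 and 1839) they were -8.45, -6.92, 0.262 and -1.70 (exact permutation p = 0.25 for each, the smallest for 3 mice), and limma called 446 sites. The median over all sites was 0, since most sites are unmethylated. The called share was 4.28% to 5.97% without each mouse, of which 86.3% to 90.1% lower, and 0 with adjusted p-values. Raw percentages gave 566 calls (84.8% lower), a minimum of 50 reads 302 calls among 6384 sites and no replicate block 645 calls (89.3% lower), 478 of the lower and 59 of the higher ones shared with the paired fit. The centred fits passed the adjusted threshold at 7531 sites with and 7136 without the variance trend (the latter added after the data were seen), because centring shifts all sites at 0% by the same amount. On 8 mg, leaving out each mouse gave -10.6 to -8.67 points at sites called lower and 5.83 to 8.69 at sites called higher. The difference between diets at unmethylated sites was -0.0345 in raw percentages, the reverse of the adjusted sign, and without mouse 1856 it was 0.130, with 1.64 at methylated sites. Low counts limit the unmethylated class: in the polyp of mouse 1820, of 10177 sites with at least 200 reads, 6434 had 0 methylated reads and 105 had exactly 1, and whether low counts were set to 0 is not given in the sources used here.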
